A study of Homo sapiens with 6 samples.

Results

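The small RNA silencing machinery is the set of proteins that makes microRNAs (miRNAs) and small interfering RNAs (siRNAs) act on messenger RNAs. The 10 genes described here were chosen by name: DROSHA and DGCR8, XPO5, DICER1 and TARBP2, AGO1, AGO2 and AGO3, and TNRC6A and TNRC6B. All 10 were among the 14168 genes listed in the table, and all 10 passed the filter on low values. RNA sequencing was performed on HaCaT cells, an immortalised human skin keratinocyte line, in 2 groups of 3 libraries. The siAgrin group had been transfected with siRNA against Agrin, the product of AGRN and a proteoglycan of the extracellular matrix. The siControl group had been transfected with control siRNA. Both groups thus carried synthetic small RNAs, which are loaded into argonaute proteins, and no untransfected cells were among the 6 libraries. The sources used here do not state which Agrin siRNA was sequenced. The study's methods describe biological repeats for most in-vitro experiments in general, but the labels number these libraries as replicates without saying that they came from separate cultures. The p-values measure the spread between these libraries only. Values are CPM, reads of a gene scaled to a common library size.

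In the nucleus, DROSHA and its partner DGCR8 form the Microprocessor, which cuts the hairpin out of a primary miRNA transcript. Exportin 5, the product of XPO5, carries the hairpin to the cytoplasm, where DICER1 with the double-stranded RNA binding protein TARBP2 trims it to a short duplex. An argonaute keeps 1 strand and pairs through its seed, bases 2 to 8, with target mRNAs. The TNRC6 (GW182) proteins bind the argonaute and recruit deadenylases. The pathway is known in mouse skin for its need in hair follicle maintenance.

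The knockdown was checked first. AGRN had 403, 412 and 387 CPM in siAgrin cells, against 797, 833 and 833 CPM in siControl cells. It fell to 48.8% of the siControl mean (log2 fold change -1.03, SE 0.05, limma adjusted p = 2.6e-05, n = 3 each). The libraries held between 40958553 and 43312708 reads in listed genes. Of the 12 keratinocyte markers looked for, 12 were detected, and their summed level was 14822 to 17750 CPM in siAgrin cells and 13689 to 14811 CPM in siControl cells. Fibroblast markers summed to 9.47 to 47.7 CPM in siAgrin cells, highest in siAgrin replicate 2, and to 12.2 to 19.7 CPM in siControl cells. The 1 endothelial marker listed reached 0.0437 CPM at most in siAgrin cells and 0.0217 CPM at most in siControl cells. The 1 melanocyte marker listed, PMEL, had 1.99 to 2.93 CPM in siAgrin cells and 3.26 to 3.87 CPM in siControl cells, with no overlap. The 2 immune markers listed, mainly CD68, summed to 24.9 to 36.6 CPM in siAgrin cells and 35.4 to 46.6 CPM in siControl cells. The part of these other cell type markers in the results was not tested.

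The silencing genes were set beside all tested genes. In the fit across all 13050 tested genes, 0 of the 10 members were called at a limma adjusted p below 0.01, against 18.2% of all tested genes. Separately by direction, 9.14% of tested genes were called higher and 9.07% lower in siAgrin cells. At an unadjusted p below 0.05, limma gave 3 of the 10 members (DGCR8, AGO3 and AGO2), or 30%, against 47.4% of all tested genes. edgeR on the recovered reads called 0 members, against 18.1% of all tested genes. DESeq2 called 1, DGCR8, as lower, against 25.8% of all tested genes. The median size of the log2 fold change was 0.105 over the members and 0.149 over all tested genes. No member differed by 2-fold, a size that only 211 of the 13050 tested genes passed. With only 10 genes, these counts do not set the members apart from all tested genes, and no test of the list was made. The summed level of the 10 genes was 499.7, 459 and 476 CPM in siAgrin cells, against 483, 467 and 462 CPM in siControl cells, and the groups overlapped. In such bulk libraries fewer cells expressing a gene and less RNA per cell cannot be told apart.

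**Figure D1:**
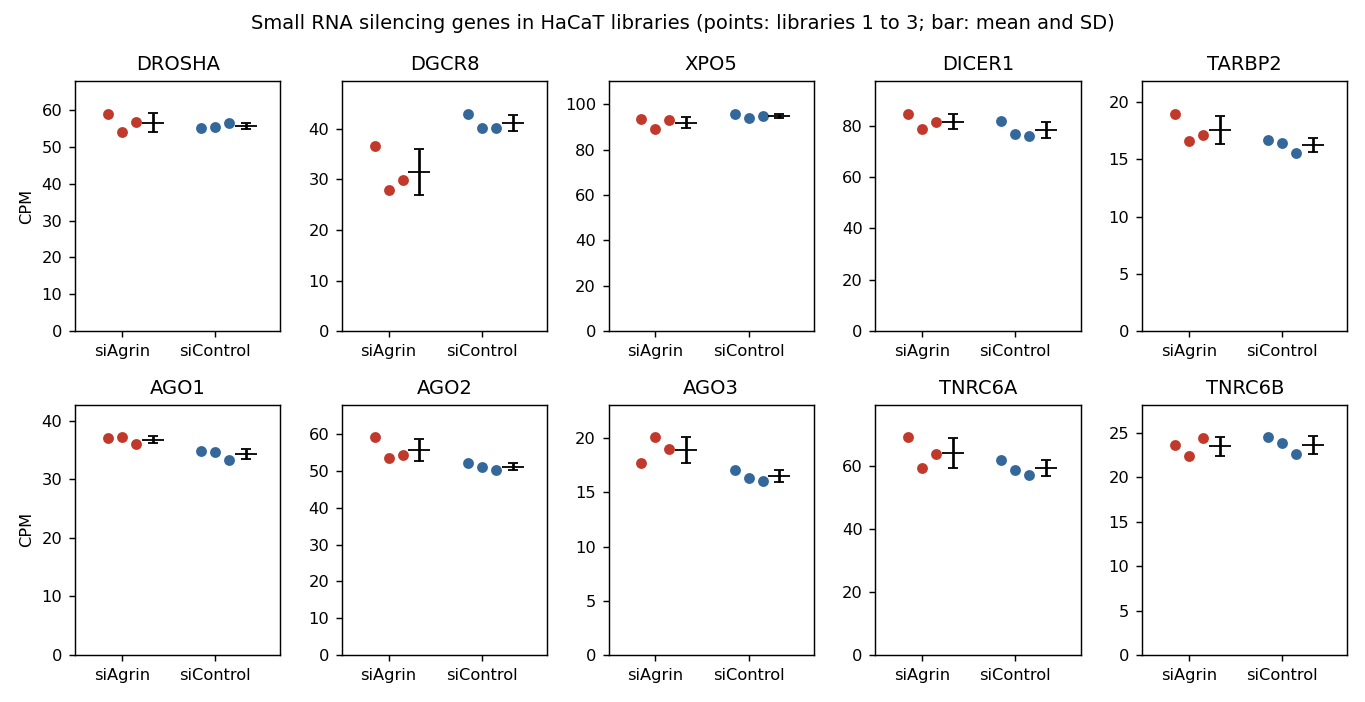
Level of each silencing gene in CPM (y axis, from 0) in siAgrin and siControl cells (x axis). Points are the 3 libraries of each group, and the bars give the mean and SD. The groups separate for DGCR8, XPO5, AGO1, AGO2 and AGO3 and overlap for the other members, and in DGCR8 the siAgrin points reach 36.7 CPM at most, below the lowest siControl point at 40.2 CPM.

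The groups did not overlap for 5 of the 10 members. AGO1, AGO2 and AGO3 lay above siControl in every siAgrin library, and DGCR8 and XPO5 lay below. Among all tested genes the groups did not overlap for 50.0%, with siAgrin above for 25.0% and below for 24.9%. The share of members without overlap was therefore that of the background. Means were higher in siAgrin cells for 7 members and lower for 3, and the median log2 fold change was 0.08 over the members and -0.00 over all tested genes.

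**Figure D2:**
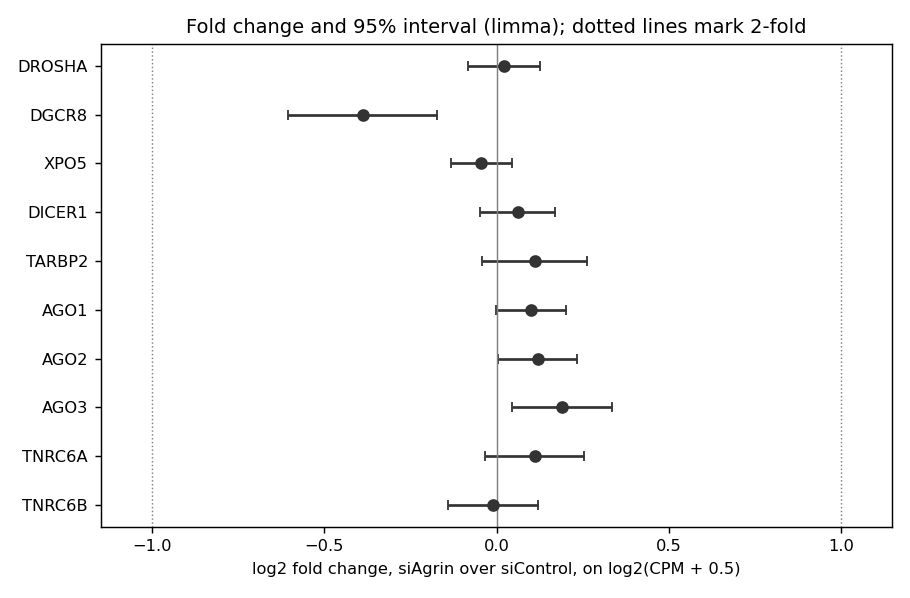
Log2 fold change of siAgrin over siControl for each silencing gene (x axis, on log2(CPM + 0.5)), with its 95% interval from limma. DGCR8 stands lowest at -0.39, and the intervals of the other 9 genes lie between -0.14 and 0.34.

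The Microprocessor genes were compared first, because they act first. DROSHA encodes the ribonuclease that cuts the hairpin (GRCh38, chromosome 5, 31400494 to 31532196, minus strand). It had 59.0, 53.9 and 56.7 CPM in siAgrin cells, against 55.2, 55.3 and 56.5 CPM in siControl cells. The siAgrin values lay on both sides of the siControl values. The log2 fold change was 0.02, with a 95% interval of -0.08 to 0.13 (limma adjusted p = 0.729). Without siAgrin replicate 1 it was -0.01.

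DGCR8 encodes the RNA-binding partner that holds DROSHA on the hairpin (chromosome 22, 20080221 to 20111877, plus strand). It had 36.7, 27.9 and 29.9 CPM in siAgrin cells, against 43.0, 40.2 and 40.2 CPM in siControl cells. Every siAgrin library lay below every siControl library, and siAgrin replicate 1 lay closest to them. The mean was 31.5 ± 4.59 CPM in siAgrin cells and 41.1 ± 1.60 CPM in siControl cells (SD, n = 3 each), a mean 23.4% lower in siAgrin cells. This was the largest difference among the 10 members (log2 fold change -0.39, SE 0.09, 95% interval -0.61 to -0.17), but it missed the call (limma adjusted p = 0.0151). The adjusted p was 0.0158 with edgeR and 0.00112 with DESeq2. Without siAgrin replicate 1 the log2 fold change was -0.50 and the gene was called (limma adjusted p = 5.3e-04). Over the 6 fits with 1 library left out, the adjusted p reached 0.0693 at most, without siAgrin replicate 3. Of its exon bases, 7.18% overlap an unlisted gene on the other strand, and the strand setting of the counting is not stated in the sources used here.

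The DGCR8 transcript is itself known as a substrate of the Microprocessor, which cuts hairpins within its own mRNA. These hairpins lie in exon 2 and carry annotated miRNAs. They are shown because DGCR8 was the member that differed most, with the seed in capitals as RefSeq gives the sequences on GRCh38.p14. The mature miR-3618 lies in the 5′ untranslated part (chr22:20085797-20085818, plus strand). Both arms of miR-1306 lie in the coding part (chr22:20086072-20086093 and chr22:20086112-20086129, plus strand).
hsa-miR-3618: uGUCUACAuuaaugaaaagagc
hsa-miR-1306-5p: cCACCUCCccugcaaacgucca
hsa-miR-1306-3p: aCGUUGGCucugguggug
The 3 sequences have 3 different seeds. Mature miRNAs are too short for a library made from polyadenylated RNA, so their levels were not measured.

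The balance of the 2 Microprocessor genes was compared within each library, per kilobase of exon. DROSHA made up 60.2%, 64.5% and 64.1% of the summed DROSHA and DGCR8 level in siAgrin cells, against 54.7%, 56.4% and 56.9% in siControl cells. The share was higher in every siAgrin library, by 6.93 percentage points (63.0% ± 2.37 in siAgrin and 56.0% ± 1.16 in siControl, SD, n = 3 each). DROSHA itself had a log2 fold change of 0.02, so the share mainly restates the DGCR8 values above and is not a separate result. In a two-sided exact permutation test over the 20 assignments of the libraries p was 0.1, which is the smallest that 3 against 3 can give, and the Benjamini-Hochberg adjusted p over the 9 shares compared was 0.18.

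Export showed a smaller difference. XPO5 encodes the carrier of the hairpin (chromosome 6, 43522334 to 43576038, minus strand) and was the member with the most reads. It had 93.7, 89.3 and 92.9 CPM in siAgrin cells, against 95.9, 93.9 and 94.6 CPM in siControl cells. All siAgrin values lay below all siControl values, but the gap was small (log2 fold change -0.04, 95% interval -0.13 to 0.04, limma adjusted p = 0.392). It was -0.02 on the log2 scale without siAgrin replicate 2. Of its exon bases, 4.10% are shared with POLR1C on the other strand, which had 24.3 CPM in siAgrin cells and 27.0 CPM in siControl cells.

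The dicing genes overlapped between the groups. DICER1 encodes the ribonuclease that makes the duplex (chromosome 14, 95086228 to 95158010, minus strand). It had 84.6, 78.7 and 81.3 CPM in siAgrin cells, against 81.8, 76.6 and 76.1 CPM in siControl cells (log2 fold change 0.06, 95% interval -0.05 to 0.17, limma adjusted p = 0.336). Both groups had their highest value in replicate 1. TARBP2, its double-stranded RNA binding partner (chromosome 12, 53500921 to 53506431, plus strand), had 18.97, 16.6 and 17.1 CPM in siAgrin cells, against 16.7, 16.4 and 15.5 CPM in siControl cells. Here siAgrin replicate 2 lay within the siControl values (log2 fold change 0.11, 95% interval -0.04 to 0.26, limma adjusted p = 0.222). Without siAgrin replicate 1 the log2 fold change of TARBP2 was 0.06, and that of DICER1 was 0.03. Without siControl replicate 1 that of DICER1 was 0.09. Of the TARBP2 exon bases, 13.2% overlap an unlisted gene on the other strand. PRKRA, which encodes an alternative partner of DICER1, had 30.2, 29.9 and 30.1 CPM in siAgrin cells, against 28.6, 28.2 and 29.01 CPM in siControl cells (log2 fold change 0.07, limma adjusted p = 0.219). Its siAgrin values all lay above its siControl values. The share of DICER1 in the summed DICER1 and TARBP2 level per kilobase was 46.2% ± 0.880 in siAgrin cells and 47.1% ± 0.724 in siControl cells (SD, n = 3 each, exact permutation p = 0.3). The difference of -0.896 percentage points was -0.389 without siAgrin replicate 1.

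The argonautes bind the small RNA, and in human cells AGO2 is the one best known for cutting a fully paired target, as an siRNA requires. AGO2 (chromosome 8, 140520156 to 140635633, minus strand) had 59.2, 53.7 and 54.4 CPM in siAgrin cells, against 52.2, 51.1 and 50.4 CPM in siControl cells. The groups did not overlap, and siAgrin replicate 1 stood above the other libraries (log2 fold change 0.12, 95% interval 0.01 to 0.23, limma adjusted p = 0.0923). Without siAgrin replicate 1 it was 0.08 on the log2 scale. AGO1 (chromosome 1, 35869808 to 35930532, plus strand) had 37.1, 37.2 and 36.0 CPM in siAgrin cells, against 34.9, 34.6 and 33.3 CPM in siControl cells. Its siAgrin values also all lay above (log2 fold change 0.10, 95% interval -0.00 to 0.20, limma adjusted p = 0.109). AGO3 (chromosome 1, 35930718 to 36072500, plus strand) had 17.7, 20.1 and 19.01 CPM in siAgrin cells, against 17.1, 16.3 and 16.1 CPM in siControl cells. It had the largest difference of the 3 argonautes and was not called (log2 fold change 0.19, SE 0.06, 95% interval 0.05 to 0.34, limma adjusted p = 0.0460).

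AGO4, AGO1 and AGO3 are neighbours on chromosome 1 on the same strand, with 11917 bases between AGO4 and AGO1 and 185 bases between AGO1 and AGO3. AGO4, the fourth argonaute and not among the 10 genes, had 14.0, 13.5 and 13.1 CPM in siAgrin cells, against 14.8, 15.2 and 13.9 CPM in siControl cells. Its values overlapped and its mean was lower in siAgrin cells (log2 fold change -0.11, limma adjusted p = 0.179), unlike the means of its neighbours. Of the summed level of the 4 argonautes per kilobase of exon, AGO2 held 39.7% ± 1.29 in siAgrin cells and 38.4% ± 0.450 in siControl cells. AGO4 held 20.6% ± 0.165 in siAgrin cells and 23.4% ± 0.571 in siControl cells, with no overlap (SD, n = 3 each, exact permutation p = 0.1, adjusted 0.18). The shares of AGO1 and AGO3 differed by 0.615 and 0.861 percentage points, siAgrin minus siControl (exact permutation p = 0.1 and 0.3). Single libraries moved these differences. That of AGO1 was 0.371 without siAgrin replicate 2, that of AGO2 was 0.685 without siAgrin replicate 1, and that of AGO3 was 1.32 without siAgrin replicate 1 and 0.526 without siAgrin replicate 2.

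The TNRC6 genes were examined next. TNRC6A (chromosome 16, 24610209 to 24827632, plus strand) had 69.1, 59.3 and 63.9 CPM in siAgrin cells, against 62.0, 58.8 and 57.0 CPM in siControl cells. The groups overlapped through siAgrin replicate 2 (log2 fold change 0.11, 95% interval -0.03 to 0.25, limma adjusted p = 0.197). Without siAgrin replicate 1 the log2 fold change of TNRC6A was 0.06 (limma adjusted p = 0.446), and without siAgrin replicate 2 it was 0.16 (limma adjusted p = 0.0385). TNRC6B (chromosome 22, 40044817 to 40335808, plus strand) had 23.7, 22.4 and 24.4 CPM in siAgrin cells, against 24.5, 23.8 and 22.6 CPM in siControl cells. These values were interleaved (log2 fold change -0.01, 95% interval -0.14 to 0.12, limma adjusted p = 0.903), and the log2 fold change turned to 0.02 without siAgrin replicate 2 or without siControl replicate 1. TNRC6C, the third paralogue, lay near the detection limit at 12, 23 and 11 reads in siAgrin cells, against 12, 18 and 15 reads in siControl cells. It did not pass the filter and was not tested. TNRC6A made up 80.4% ± 0.993 of the summed TNRC6 level per kilobase in siAgrin cells and 79.1% ± 0.304 in siControl cells (SD, n = 3 each, exact permutation p = 0.1, adjusted 0.18). The difference of 1.33 percentage points was 0.757 without siAgrin replicate 1.

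**Figure D3:**
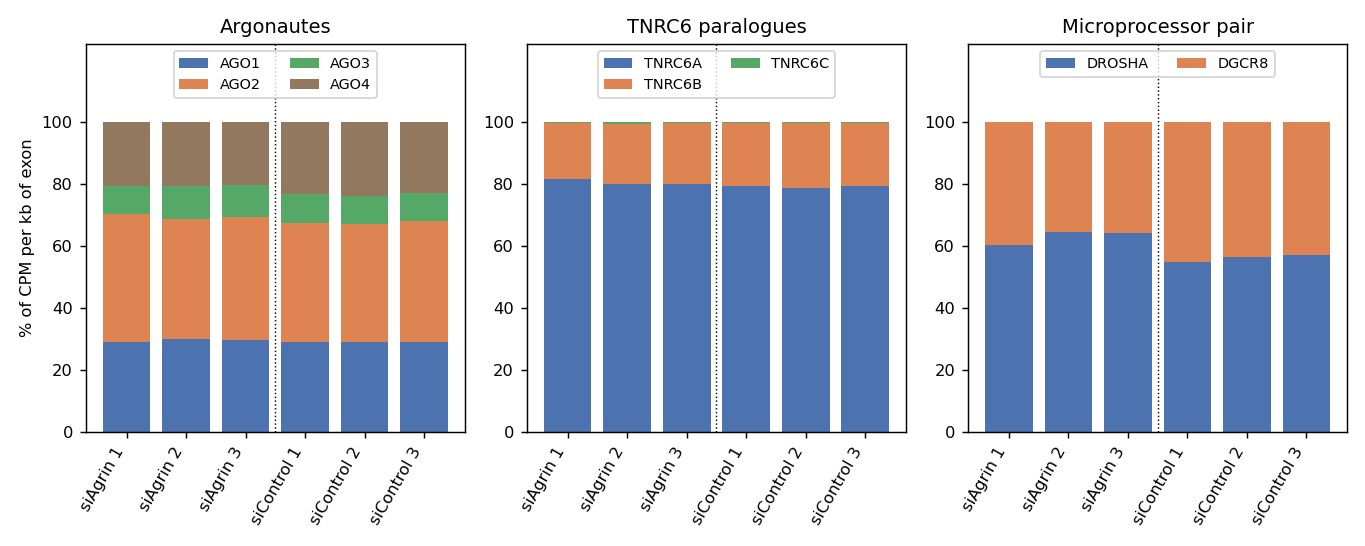
Stacked shares, in percent of CPM per kilobase of exon within a library (y axis), of AGO1 to AGO4 among the argonautes, of the TNRC6 genes among themselves, and of DROSHA and DGCR8. Each bar is 1 library, siAgrin left of the dotted line and siControl right of it, and the DROSHA share is 60.2% to 64.5% in siAgrin and 54.7% to 56.9% in siControl.

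The intervals show what size of difference these libraries could hold. For the 9 members other than DGCR8 the 95% intervals together spanned 0.908-fold to 1.26-fold, the upper bound being that of AGO3, and 7 of the 9 intervals included no difference. The members had between 724 reads (TARBP2) and 4465 reads (XPO5) in a library. Counting alone gives a coefficient of variation of 3.72% at 724 reads, and of 1.56% at 4091 reads, the lowest count of XPO5. The median coefficient of variation between replicates was 4.92% in siAgrin cells and 3.41% in siControl cells for the members. For all tested genes it was 6.26% in siAgrin cells and 4.47% in siControl cells. Taken at each member's lowest read count, this counting variation was at least as large as the spread between replicates for 1 of the 10 members in siAgrin cells (AGO1) and for 6 of the 10 in siControl cells. DGCR8 was the most variable in siAgrin cells, at 14.6%, against 3.89% in siControl cells.

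Within each group, most members had their highest value in the same replicate. These are ranks among 3 libraries without a test, and for some members the spread was no larger than counting variation. In siAgrin cells, replicate 1 was the highest of its group for 7 of the 10 members (DROSHA, DGCR8, XPO5, DICER1, TARBP2, AGO2 and TNRC6A), as it was for 41.0% of all tested genes. In the same group, replicate 2 was the lowest for 8 of the 10, against 40.6% of all tested genes. In siControl cells, replicate 1 was the highest for 9 of the 10, against 40.3% of all tested genes. The exceptions among the siAgrin libraries included AGO1 and AGO3, both highest in replicate 2.

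Levels of the genes were set beside each other only per kilobase of exon. XPO5 stood highest, at 10.8 CPM per kilobase in siAgrin cells and 11.2 in siControl cells, and DROSHA came next, at 7.27 in siAgrin and 7.15 in siControl cells. The lowest were TNRC6B, at 1.17 in siAgrin and 1.18 in siControl cells, and AGO3, at 0.895 in siAgrin and 0.780 in siControl cells. DGCR8 stood at 4.30 CPM per kilobase in siAgrin cells, level with TARBP2 at 4.30, and at 5.62 in siControl cells, where TARBP2 had 3.97. In siAgrin cells the neighbouring pairs TNRC6A and DGCR8, DGCR8 and TARBP2, and DICER1 and AGO2 overlapped in their library values. In siControl cells no neighbours overlapped. With the length of the canonical transcript, an alternative chosen after the data were seen, TARBP2 moved to the second place, while XPO5 stayed first and AGO2, AGO1, TNRC6B and AGO3 kept the last places.

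DGCR8, as the member with the smallest p, was set against every other tested gene across the 6 libraries as a description. The most alike by Pearson r of log2(CPM + 0.5) were CEP162 (0.999), POGLUT1 (0.998) and KAT2A (0.998). CEP162 averaged 13.6 CPM in siAgrin and 17.3 CPM in siControl cells, POGLUT1 19.2 CPM in siAgrin and 23.7 CPM in siControl cells, and KAT2A 36.9 CPM in siAgrin and 49.3 CPM in siControl cells. The 6 points share both groups and all libraries, and no test was made.

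The other genes of the pathway were described by list. The 9 lists named 112 genes, of which 100 were listed and 95 tested, and 2 were called higher and 7 lower in siAgrin cells. That is 9.47% of those tested, beside 18.2% of all tested genes. No gene was called by limma in 5 lists, which cover export and dicing cofactors, loading chaperones, poly(A) binding, deadenylation, and small RNA tailing and turnover. They held 42 tested genes, of which 13 had an unadjusted limma p below 0.05, or 31.0%, against 47.4% of all tested genes. edgeR called 0 of them, against 18.1% of all tested genes, and DESeq2 called 2, or 4.76%, against 25.8%. These counts depended on single libraries. Without siAgrin replicate 2, limma called 5 of the 9 loading chaperones and 1 export and dicing cofactor as higher. In that fit 1674 of all 13050 tested genes were called higher, against 1193 with all libraries. Without siAgrin replicate 1 it called 1 deadenylation gene as higher, and 1200 of all tested genes. Among deadenylation genes, whose products shorten the poly(A) tail of targets, the median log2 fold change was -0.04 over 15 tested. Among loading chaperones, which hold the argonaute open for the duplex, it was 0.22 over 9 tested, with single genes from -0.14 to 0.31.

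Of 13 Microprocessor cofactors, 1 was called lower and 0 higher. DDX17, an RNA helicase found with DROSHA, had 182, 166 and 149 CPM in siAgrin cells, against 255, 251 and 233 CPM in siControl cells. It fell in every siAgrin library (log2 fold change -0.57, SE 0.07, limma adjusted p = 0.00124) and was called in 6 of 6 fits with a library left out. DDX5, its close paralogue, chosen after its values were seen, had 266, 181 and 196 CPM in siAgrin cells, against 321, 284 and 279 CPM in siControl cells. The groups did not overlap, with siAgrin replicate 1 nearest to siControl, and the gene was not called (log2 fold change -0.48, limma adjusted p = 0.0253).

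Of 10 argonaute partners, 1 was called lower and 0 higher. FMR1, which encodes a translational repressor found with argonautes, had 117, 121 and 118 CPM in siAgrin cells, against 152, 148 and 142 CPM in siControl cells. It fell by 0.31 on the log2 scale (SE 0.04, limma adjusted p = 0.00140), and the call was lost without siAgrin replicate 3 (limma adjusted p = 0.0134) and without siControl replicate 2. Of 17 decapping and decay genes, 1 was called higher and 0 lower. LSM4, a subunit of the LSM ring that binds the ends of deadenylated mRNAs, had 135, 132 and 135 CPM in siAgrin cells, against 114, 110.2 and 110.5 CPM in siControl cells. It rose by 0.26 on the log2 scale (SE 0.04, limma adjusted p = 0.00180), and the call was lost without siAgrin replicate 3 (limma adjusted p = 0.0170) and without siControl replicate 2 or 3.

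**Figure D4:**
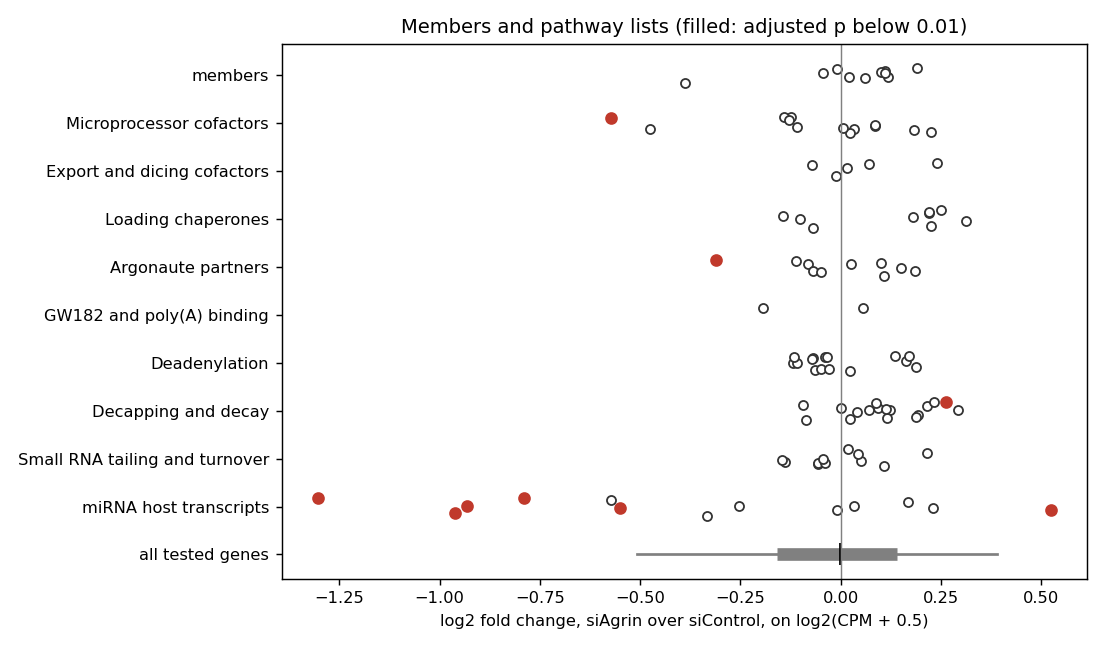
Log2 fold change of siAgrin over siControl (x axis) for the 10 silencing genes (top row, members) and the tested genes of each pathway list. Each point is a gene, filled where it was called at a limma adjusted p below 0.01, and the bottom row gives all tested genes by their median, middle quartiles (thick bar) and 5th to 95th percentile (line). Of the filled points 6 are miRNA host transcripts, and no silencing gene is filled.

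The list with most calls was that of the miRNA host transcripts, long RNAs from whose genes miRNAs are cut. Of 13 tested, 5 were called lower and 1 higher, or 46.2%, beside 18.2% of all tested genes. The median log2 fold change was -0.33 over the list and -0.00 over all tested genes. The 7 hosts not called included the most abundant of the list, MIR205HG. It had a mean of 625 CPM in siAgrin cells and 624 CPM in siControl cells (log2 fold change -0.01, limma adjusted p = 0.965). With only 13 genes, chosen with earlier results known, these counts do not stand for miRNA hosts in general. No test of the list was made. The values of this list are levels of the host RNA, not of the miRNAs. MIR22HG (chromosome 17, 1711447 to 1717174, minus strand) had 10.6, 10.3 and 9.20 CPM in siAgrin cells, against 21.5, 17.8 and 19.8 CPM in siControl cells. It fell by 0.93 on the log2 scale (SE 0.09, limma adjusted p = 3.3e-04) and was called in 6 of 6 fits with a library left out. MIRLET7BHG (chromosome 22, 46053869 to 46113928, plus strand) had 1.86, 2.99 and 2.04 CPM in siAgrin cells, against 5.30, 7.10 and 6.61 CPM in siControl cells. It had the largest fold of the list, with log2 fold change -1.30 (SE 0.16, limma adjusted p = 0.00111). MIRLET7BHG was likewise called in 6 of 6, but only just without siAgrin replicate 3 (limma adjusted p = 0.00981).

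Each of the other host calls was lost in some of the fits with a library left out. Calls over all tested genes also fell there, from 2377 to 571 without siAgrin replicate 3. They fell to 667 without siControl replicate 2 and to 765 without siControl replicate 3. MIR200CHG (chromosome 12, 6963226 to 6964447, plus strand) had 2.86, 3.97 and 2.84 CPM in siAgrin cells, against 6.14, 7.06 and 6.89 CPM in siControl cells (log2 fold change -0.96, limma adjusted p = 0.00128). Its call was lost without siAgrin replicate 3 (limma adjusted p = 0.0102) and without siControl replicate 2. H19 (chromosome 11, 1995166 to 2004552, minus strand), an imprinted long RNA, had 1.26, 1.33 and 1.09 CPM in siAgrin cells, against 2.13, 2.71 and 2.64 CPM in siControl cells (log2 fold change -0.79, limma adjusted p = 0.00191). MIR100HG (chromosome 11, 122028325 to 122556721, minus strand), named as the exception in direction, was the host that rose, with 4.54, 5.33 and 5.27 CPM in siAgrin cells, against 3.59, 3.12 and 3.35 CPM in siControl cells (log2 fold change 0.52, limma adjusted p = 0.00421). The calls of H19 and MIR100HG were lost without siAgrin replicate 3 and without siControl replicate 2 or 3. MIR222HG (chromosome X, 45745210 to 45770274, minus strand), named after its values were seen, had 2.39, 2.79 and 2.28 CPM in siAgrin cells, against 4.36, 3.66 and 3.61 CPM in siControl cells (log2 fold change -0.55, limma adjusted p = 0.00635). It was called in 1 of 6 such fits, that without siAgrin replicate 2.

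**Figure D5:**
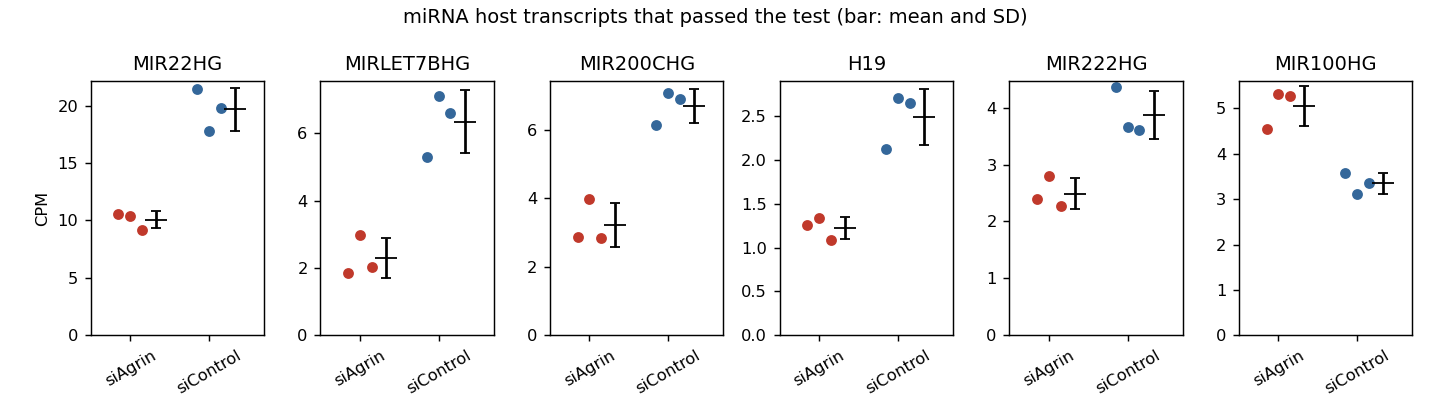
Level in CPM (y axis, from 0) of the 6 miRNA host transcripts that were called, in siAgrin and siControl cells (x axis). Points are the 3 libraries of each group and bars the mean and SD, and siAgrin lies below siControl in all of them but MIR100HG, where it lies above.

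A selection of the miRNAs annotated within these hosts, picked by hand as the best known arms, is shown so that the seeds the silencing machinery would use can be read beside the host levels. The sequences are from RefSeq on GRCh38.p14, with the seed in capitals. The first lines come from the hosts that were lower in siAgrin cells.
hsa-miR-22-3p: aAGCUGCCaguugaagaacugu
hsa-let-7b-5p: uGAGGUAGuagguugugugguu
hsa-let-7a-5p: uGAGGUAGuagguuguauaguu
hsa-miR-200c-3p: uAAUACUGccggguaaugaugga
hsa-miR-141-3p: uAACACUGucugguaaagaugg
hsa-miR-675-5p: uGGUGCGGagagggcccacagug
hsa-miR-221-3p: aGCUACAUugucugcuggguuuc
hsa-miR-222-3p: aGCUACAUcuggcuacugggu
hsa-miR-100-5p: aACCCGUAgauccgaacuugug
hsa-miR-125b-5p: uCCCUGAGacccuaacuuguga
miR-22-3p lies in MIR22HG, let-7b-5p in MIRLET7BHG, miR-200c-3p and miR-141-3p in MIR200CHG, miR-675-5p in H19, and miR-221-3p and miR-222-3p in MIR222HG. miR-100-5p and miR-125b-5p lie in MIR100HG, the host that was higher. The mature let-7a-5p is made from more than 1 locus and has a copy in MIRLET7BHG and another in MIR100HG, hosts that moved in opposite directions. Copies of the listed miRNAs outside the called hosts were not looked for. let-7a-5p and let-7b-5p share the seed GAGGUAG, and miR-221-3p and miR-222-3p share the seed GCUACAU.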

How the data were processed

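Per the labels and the study's methods, the authors made stranded polyA libraries sequenced as 75 bp single reads, aligned them to hg38 with STAR 2.6.1d, counted reads per gene with HTSeq (an earlier GENCODE release than the one used here for positions) and deposited CPM computed with edgeR. How HTSeq treated strand, and which filter left the listed genes, are not given in the sources used here. The labels and the methods differ on the RNA kit and the culture medium.

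The CPM values were whole multiples of 1 read in each library (tolerance 0.01 reads), so reads could be recovered. No read was present for 133 of the 14168 listed genes. The 13050 genes reaching 0.5 CPM in 3 or more libraries were tested with limma 3.58.1 (trend) in R 4.3.3 on log2(CPM + 0.5), two-sided, with Benjamini-Hochberg adjustment over all of them, and called at an adjusted p below 0.01. Fold changes on this scale understate those of low genes. edgeR 4.0.16 (quasi-likelihood) and DESeq2 1.42.0 were run on the recovered reads as alternatives, beside other pseudocounts, filters, thresholds, a replicate block and each library left out. Shares were tested by exact permutation. Positions and exon lengths are from GENCODE 44 (GRCh38), miRNAs from RefSeq. The fit was tested on simulated data. The planted changes were larger than the difference of any member, so that test does not show whether differences as small as theirs would be called.

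The 10 genes and the lists were chosen with earlier results of these data known. The text names every member, AGRN, the paralogues AGO4, TNRC6C and PRKRA, up to 4 called genes of each list with the smallest p and any needed as an exception, and the 3 genes most like the member with the smallest p.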

Additional observations from a re-analysis of the deposited data

How the results depend on the processing

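Among all 13050 tested genes, 2377 were called. The count was 4802 at an adjusted p below 0.05, 3966 with a replicate block, and between 571 (without siAgrin replicate 3) and 3362 (without siAgrin replicate 2) with 1 library left out. The count was also 667 without siControl replicate 2, 765 without siControl replicate 3 and 1553 without siControl replicate 1. DESeq2 called 3361 and edgeR 2360. Members called higher numbered 1 (AGO3) at an adjusted p below 0.05. Members called lower numbered 1 with DESeq2, with the replicate block and at an adjusted p below 0.05, and 0 to 1 with a library left out, in each case DGCR8. The block gave DGCR8 a limma adjusted p of 7.7e-04. The study's methods name no pairing of these libraries, so the main fit had no block. Same-numbered libraries deviated together with r of 0.53, 0.38 and -0.00, and not every library was closest to its own number. These values do not settle whether the numbers mark pairs. Pathway genes called higher (2) numbered 1 with a filter at a mean of 5 CPM, 6 with DESeq2, 16 with the block, 17 at an adjusted p below 0.05, and 0 to 14 with a library left out. Those called lower (7) numbered 3 at the filter of 5 CPM, 12 at an adjusted p below 0.05, and 3 to 8 with a library left out. The filter of 5 CPM took MIR100HG, MIRLET7BHG, MIR200CHG, H19 and MIR222HG out of the tested genes. Without scaling by length, the share of AGO1 differed by 0.0428 and that of AGO4 by -1.73 percentage points. With a library left out, the log2 fold change of DROSHA was between -0.0087 (without siAgrin replicate 1, where its sign turned) and 0.055, and that of TNRC6B between -0.042 and 0.024, with its sign turned without siAgrin replicate 2 (0.024) and without siControl replicate 1 (0.016). The causes were not tested. With 3 libraries a group, the exact test cannot go below 0.1, and CPM carry no measure of total RNA per cell.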
